A study of Mus musculus with 12 samples.

Results

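Gastrocnemius muscle of mice homozygous for the Gmppb R287Q allele was compared with that of wild-type (WT) mice at 32 weeks of age, over every gene that averaged at least 1 TPM across all 12 libraries of the study. TPM is a length-corrected share of the transcripts in a library, so levels of different genes can be compared but more of one gene means less of the rest. The floor left 9152 of the 30488 gene symbols in the table; 358 of those kept averaged just above that floor (by up to 10% of it) and 392 of those left out just below. R287Q mice carry a G-to-A change at coding base 860 of both Gmppb copies, which exchanges arginine 287 for glutamine. WT mice carry no edit. The other groups, used here only for the shared estimate of spread and for comparison, were KO mice, heterozygous for a Cas9 deletion of Gmppb exons 2 and 3 (303 bp), and P32L mice, heterozygous for a proline-to-leucine change at residue 32. Each group held 3 mice, all kept on a standard diet. The labels give neither sex nor litter, and neither feeding state, sequencing batch nor time of day. Nothing says how many founders or litters a group came from. The limma p-values therefore measure a spread between the 3 mice of a group, pooled over the 4 groups, and the differences may be partly technical. One of the labels calls the samples muscle cells, but the protocol took 100 mg of whole tissue, and RNA of fat, blood and connective tissue was present.

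Gmppb encodes the catalytic subunit of GDP-mannose pyrophosphorylase, the enzyme that joins mannose 1-phosphate and GTP into GDP-mannose. GDP-mannose feeds the O-mannosyl glycan of alpha-dystroglycan, which ties the muscle fibre membrane to laminin, and it also feeds N-linked glycans and GPI anchors. In humans, variants of GMPPB cause dystroglycan-related muscular dystrophies that range from congenital to limb-girdle forms and can include a myasthenic syndrome.

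The edited position is shown because it defines the allele. In the mm10 reference the base lies at position 108051151 of chromosome 9, plus strand, in exon 9 of 10 of the longer annotated transcript, and it is the middle base of a cgg codon that becomes cag (G860A, counted from the first coding base). The 61 reference bases around it, chr9:108051121-108051181, are given below 5′ to 3′, from the GENCODE M21 transcript, with the edited base in capitals; every base lies in the coding sequence, which encodes 359 residues.
WT reference: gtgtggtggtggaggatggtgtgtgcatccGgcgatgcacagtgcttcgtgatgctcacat
R287Q allele: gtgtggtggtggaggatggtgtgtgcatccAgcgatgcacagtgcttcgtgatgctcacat
The allele was written from the labelled substitution. Expression values do not show which base a read carried, so they cannot check the genotype.

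The level of the edited transcript did not separate the groups. Gmppb stood at 4.42, 3.02 and 3.61 TPM in the 3 WT animals and at 3.03, 4.09 and 4.16 TPM in the 3 R287Q animals. The groups overlapped, and the highest single value belonged to a WT mouse. The log2 difference, R287Q minus WT, was 0.02 (SE 0.12, 95% interval -0.24 to 0.28; limma adjusted p = 0.993; exact two-sided permutation p = 0.9, where 0.1 is the smallest that 3 against 3 mice allow). Leaving out 1 mouse turned its direction: the difference was -0.08 without WT mouse 2, -0.03 without R287Q mouse 2 and -0.04 without R287Q mouse 3. Exons of Gmppb overlap those of Rnf123 on the opposite strand and of Gm20529 on the same strand, and the library kit did not keep strand, so part of this signal may come from those genes.

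Across all genes, none passed. Limma called 0 of 9152 genes (0%) at an adjusted p under 0.05, and the smallest adjusted p was 0.425. At an unadjusted p under 0.05 there were 491 genes (5.36%), 156 higher (1.7%) and 335 lower (3.66%) in R287Q. The 3 R287Q values lay wholly above or below the 3 WT values for 824 genes (9%), of which 276 were higher (3.02%) and 548 lower (5.99%). A p that misses the threshold does not show that the groups are alike: the median 95% interval reached 0.243 to either side of its log2 difference, and for 8832 genes (96.5%) it lay within -1 to 1. Since no gene passed, the values below describe which genes lay apart and by how much. Many of the genes named were picked for groups without overlap and a small p or a large difference. Their separation therefore restates that choice, and the size of their differences carries it too.

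The whole distribution sat slightly below 0. The median log2 difference was -0.04 (quartiles -0.11 and 0.04), with 5780 genes (63.2%) below 0 and 3372 (36.8%) above, and every count of members below is to be read against those shares and, for members without overlap, against the 3.02% of all genes that were higher and the 5.99% that were lower in that way. With mitochondrial genes left out the median was 0.03. Median-of-ratios scaling and quantile normalization centre the genes by construction and put it at 0.00 and -0.01. Single differences ran from -2.02 to 2.10, with 18 genes above 1 and 9 below -1. Profiles correlated at 0.984 to 0.986 between WT mice, 0.984 to 0.992 between R287Q mice and 0.98 to 0.991 between the groups; these are correlations across genes, and genes are no replicates. Mitochondrially encoded transcripts took 53.0% to 58.4% of each of the 12 libraries and 7 nuclear copies of them another 19.6% to 21%. All libraries held Y-linked Ddx3y at 10 to 14.5 TPM.

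**Figure D1:**
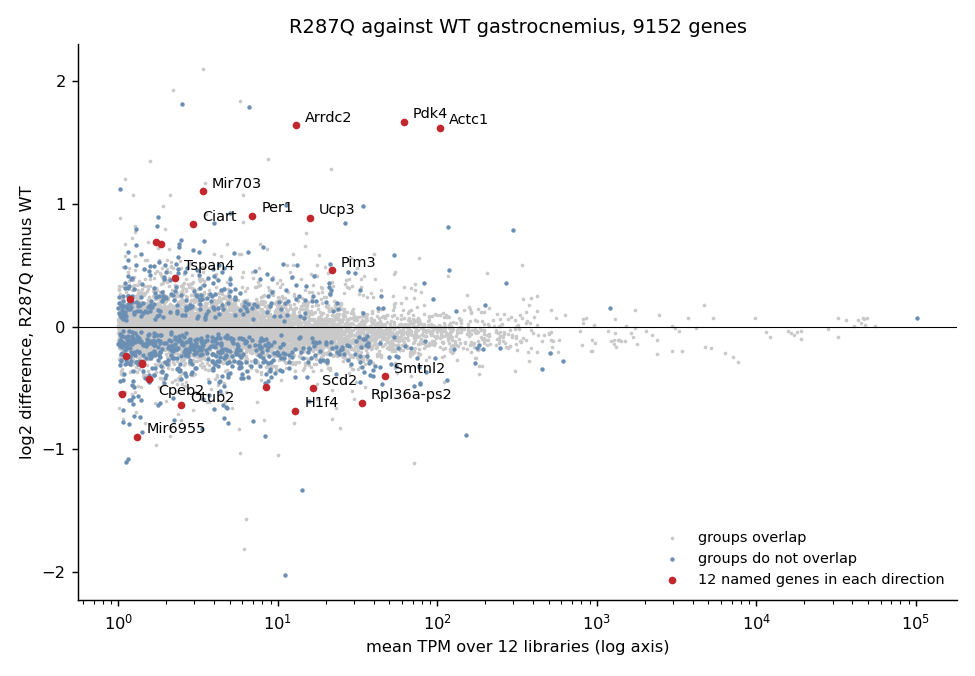
Log2 difference of R287Q minus WT (vertical axis) against mean TPM over 12 libraries (horizontal log axis) for 9152 genes. Blue points are genes whose 3 R287Q values lie wholly above or below the 3 WT values, and red points are the 12 genes with the smallest p in each direction; Arrdc2, Pdk4 and Actc1 stand above 1.6, and no gene passed the adjusted threshold.

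The machinery that makes and uses GDP-mannose lay close to WT, with no member of its 3 gene groups past the threshold. Of 13 measured genes that supply GDP-mannose or pass its mannose to dolichol, 9 lay below WT and 4 above, with a median of -0.06 against -0.04 over all genes. Gmppa, the regulatory partner of Gmppb, was at 7.79, 7.71 and 6.82 TPM in WT and 5.80, 6.84 and 7.12 TPM in R287Q (log2 difference -0.16, SE 0.11), and the groups overlapped. Pmm1, a phosphomannomutase that makes the substrate of Gmppb, was at 3.30, 3.63 and 2.93 TPM in WT and 3.70, 3.64 and 3.48 TPM in R287Q (0.11, SE 0.09), again with overlap. The other phosphomannomutase, Pmm2, differed by 0.00 (SE 0.08), and Mpi, which makes mannose 6-phosphate, by -0.06 (SE 0.15). Dpm1, Dpm2 and Dpm3, the subunits of dolichol-phosphate mannose synthase, differed by -0.24 (SE 0.28), 0.07 (SE 0.15) and -0.05 (SE 0.14). No member of the group had non-overlapping values.

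Of the genes that build the O-mannosyl glycan of dystroglycan, 10 were measured and 9 of them lay below WT (median -0.11). Rxylt1, which adds ribitol-linked xylose to the glycan, was the 1 gene without overlap: 4, 4.18 and 4.06 TPM in WT against 3.61, 3.61 and 3.95 TPM in R287Q. All 3 R287Q mice were below all WT mice, but by little (log2 difference -0.10, SE 0.07; limma unadjusted p = 0.186). B3galnt2, which adds the N-acetylgalactosamine of the core, was at 8.43, 6.98 and 7.54 TPM in WT and 5.95, 6.06 and 7.03 TPM in R287Q (-0.24, SE 0.12), with R287Q mouse 3 just inside the WT range. Pomgnt2, a glycosyltransferase of the core, differed by -0.21 (SE 0.13) and the initiating mannosyltransferase Pomt1 by -0.05 (SE 0.08). Dag1, the gene of dystroglycan itself, was at 13.9, 11 and 10.2 TPM in WT and 9.09, 11.1 and 11.7 TPM in R287Q (-0.12, SE 0.14). Its groups overlapped, with R287Q mouse 1 the lowest. The 1 member above WT was Pomgnt1 (0.08, SE 0.08). B4gat1, which primes the laminin-binding chain of the glycan, had the widest interval (-0.34, 95% interval -1.04 to 0.36), with WT mouse 1 at 28.1 TPM and the other mice at 10.6 to 16.6 TPM. Members averaging under 1 TPM, among them Pomt2, were not tested.

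The dystrophin complex, the membrane assembly that holds dystroglycan, had 8 measured members and all 8 lay below WT (median -0.07). The furthest was Nos1, neuronal nitric oxide synthase, at 1.74, 1.66 and 1.34 TPM in WT and 0.840, 0.834 and 1.55 TPM in R287Q (log2 difference -0.33, SE 0.13; limma unadjusted p = 0.0259, adjusted p = 0.833). R287Q mice 1 and 2 were below all WT mice and mouse 3 lay among them. Sgca, alpha-sarcoglycan, differed by -0.15 (SE 0.15), Sspn, sarcospan, by -0.09 (SE 0.12), and Sgcb, Cav3 and Dtna by between -0.07 and -0.03. Dmd (0.147 TPM in WT and 0.131 TPM in R287Q on average), Utrn and 5 other members averaged under 1 TPM and were not tested. In this complex and in the O-mannosylation group R287Q mouse 1 had the lowest list score of the 3 R287Q mice and mouse 3 the highest, where a score is the mean log2(TPM + 1) of the members less its average over 12 libraries. In WT, mouse 1 had the highest score of both groups. Without WT mouse 1 the median difference of the O-mannosylation group was -0.02 and that of the dystrophin complex 0.01; without R287Q mouse 1 they were -0.07 and -0.01, without R287Q mouse 3 -0.17 and -0.15, and without WT mouse 3 -0.20 and -0.20. The median of the supply group was likewise 0.02 without WT mouse 1 and 0.01 without R287Q mouse 1, against -0.13 without WT mouse 3 and -0.10 without WT mouse 2. With mitochondrial genes left out, the medians of the supply group and the dystrophin complex were 0.01 and 0.00, so their direction also depended on that setting. It rescales the remaining genes against the same pseudocount and applies the floor anew, which kept 14386 genes, and the part of each change was not tested.

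**Figure D2:**
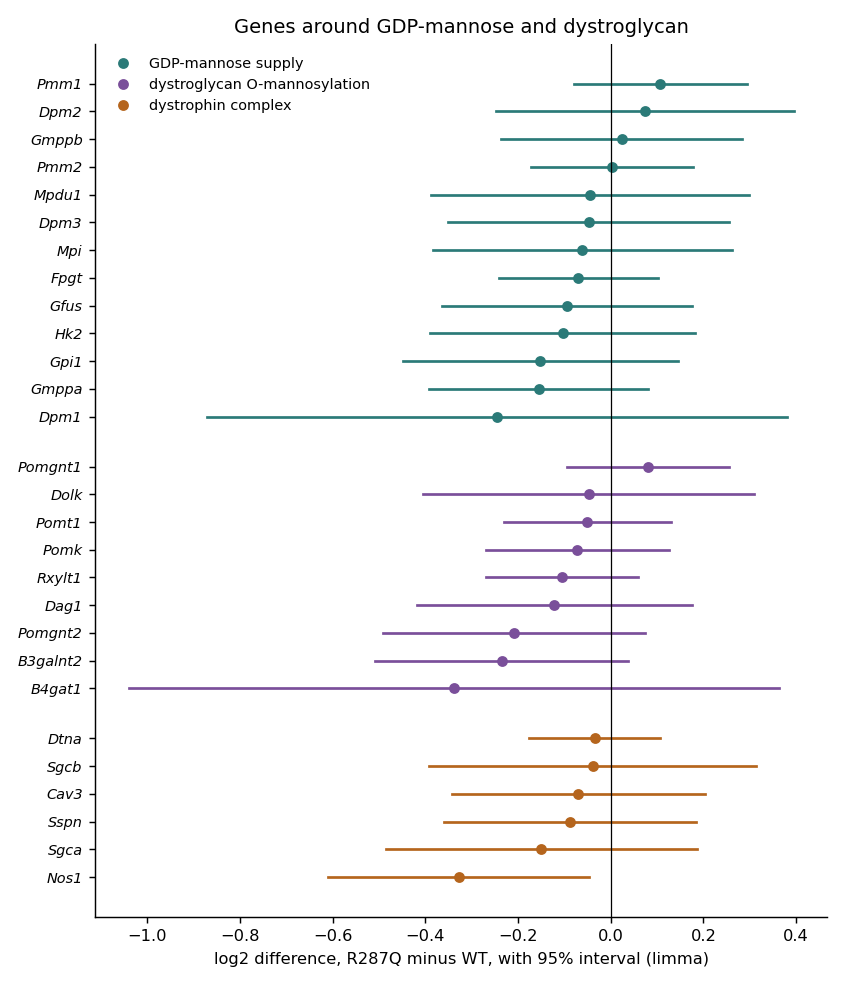
Log2 difference of R287Q minus WT with its 95% interval from limma (horizontal axis) for measured genes of GDP-mannose supply, dystroglycan O-mannosylation and the dystrophin complex, leaving out 3 members that are not reported here. Points sit between -0.34 and 0.11, and the interval of 1 gene, Nos1, leaves out 0.

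The other users of GDP-mannose gave like values. Of 17 genes of N-glycan assembly 14 lay below WT (median -0.05, but 0.01 with mitochondrial genes left out), led by Dpagt1, which starts the lipid-linked sugar (-0.17, SE 0.12). Of 13 genes of GPI anchor synthesis 10 lay below (median -0.06); Pigv, a GPI mannosyltransferase, had no overlap, at 2.82, 2.38 and 2.32 TPM in WT and 1.87, 2.30 and 2.14 TPM in R287Q (-0.17, SE 0.09). In basal lamina and integrins 9 of 13 lay above (median 0.05) and the members stayed between -0.07 and 0.12. Genes of the neuromuscular junction were below WT in 7 of 8 (median -0.09, but -0.02 without R287Q mouse 1 or WT mouse 1, -0.05 without WT mouse 2, -0.21 without WT mouse 3 and -0.23 without R287Q mouse 3), with the receptor subunit Chrnb1 at -0.15 (SE 0.12). Of 16 limb-girdle dystrophy genes outside dystroglycan 11 were below (median -0.03, but 0.02 after median-of-ratios scaling or quantile normalization), and 2 of these did not overlap (5.99% of all genes). Those were Des, the intermediate filament desmin, at 610, 654 and 646 TPM in WT and 547, 507 and 519 TPM in R287Q (-0.28, SE 0.11), and Bves, a membrane cyclic-AMP binding protein (-0.19, SE 0.08). The direction of 4 of these medians rested on single libraries. Without WT mouse 1 it was 0.05 for N-glycan assembly and 0.03 for GPI anchors, without R287Q mouse 1 it was 0.03 for N-glycan assembly and 0.01 for limb-girdle genes, and without R287Q mouse 3 or WT mouse 2 it was -0.03 for basal lamina and integrins.

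Several genes of the circadian clock were among those lying furthest above WT relative to their spread. The clock is a loop in which CLOCK and BMAL1 bind E-box sequences, drive Per, Cry and Nr1d genes and are then repressed by their products. Per1, a repressor of that loop, was at 4.11, 3.64 and 3.05 TPM in WT and at 8.93, 7.22 and 6.72 TPM in R287Q. Every R287Q mouse was above every WT mouse, and the lowest R287Q value stood well clear of the highest WT value. The mean was 2.12-fold that of WT (log2 difference 0.90, SE 0.18, 95% interval 0.50 to 1.31; limma adjusted p = 0.425). Ciart, another repressor of CLOCK and BMAL1, was at 1.25, 2.06 and 1.60 TPM in WT and 5.84, 2.95 and 2.75 TPM in R287Q (0.83, SE 0.22; limma adjusted p = 0.518). Its groups did not overlap, with R287Q mouse 1 far above the others of its group.

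Other clock genes separated by less. Per2 was at 1.16, 0.448 and 0.792 TPM in WT and 1.17, 1.62 and 1.34 TPM in R287Q (0.42, SE 0.13), so that R287Q mouse 1 and WT mouse 1 nearly touched. Per3 (0.17, SE 0.07) and Nr1d2, which encodes the repressor REV-ERB beta (0.22, SE 0.08), were also higher without overlap. Nr1d1, which encodes REV-ERB alpha, went the other way: 35.9, 46.5 and 43.2 TPM in WT against 33.3, 27.7 and 34.1 TPM in R287Q (-0.39, SE 0.14). Its exons overlap those of Thra on the opposite strand, and reads of the pair cannot be told apart. Of 12 measured clock repressors, 6 lay above WT and 6 below (median -0.01, but 0.03 after median-of-ratios scaling and 0.02 after quantile normalization), 5 were higher without overlap (3.02% of all genes were) and 1 was lower (5.99% of all genes). That median lay between -0.06 without R287Q mouse 3 and 0.05 without WT mouse 1. Bhlhe40 (-0.25, SE 0.15), Bhlhe41 (-0.20, SE 0.16), Cry2 (-0.08, SE 0.08), Csnk1d and Csnk1e overlapped with WT.

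Among 9 activators and output genes, 3 lay above WT and 6 below (median -0.01, but 0.04 after median-of-ratios scaling or quantile normalization). Dbp, a transcription factor that the clock drives directly, was at 22.8, 26.4 and 27 TPM in WT and 39.1, 32.1 and 33.3 TPM in R287Q, with no overlap (0.44, SE 0.13; limma adjusted p = 0.593). Tspan4, a tetraspanin counted among clock outputs, was at 1.99, 1.74 and 1.91 TPM in WT and 2.64, 2.88 and 2.86 TPM in R287Q (0.40, SE 0.08). Both groups were tight and lay apart. Exons of Dbp and of Tspan4 overlap those of Sphk2 and Chid1 on the opposite strand. Usp2, a deubiquitinase with a daily rhythm, was higher on average (0.39, SE 0.19), but WT mouse 1 at 17.2 TPM exceeded all R287Q mice. Arntl, the gene of BMAL1, averaged under 1 TPM and was not tested; it was at 0.449, 0.536 and 0.489 TPM in WT and 0.287, 0.352 and 0.367 TPM in R287Q, lower in all 3 R287Q mice. The hour of collection is not given in the labels, and its part in these values was not tested.

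Promoter windows of Per1 and Ciart are shown because these were the 2 clock repressors furthest above WT and hold the E-box CACGTG, searched on both strands, where it reads the same. Of 32851 RefSeq windows of 300 bases (250 before to 50 after each start), 2349 (7.15%) hold it. The sequences are from RefSeq on GRCm38.p6, printed 5′ to 3′ on the strand of the gene, with each E-box in capitals: Per1 at chr11:69098699-69098998, plus strand, and Ciart at chr3:95882179-95882478, minus strand.
Per1: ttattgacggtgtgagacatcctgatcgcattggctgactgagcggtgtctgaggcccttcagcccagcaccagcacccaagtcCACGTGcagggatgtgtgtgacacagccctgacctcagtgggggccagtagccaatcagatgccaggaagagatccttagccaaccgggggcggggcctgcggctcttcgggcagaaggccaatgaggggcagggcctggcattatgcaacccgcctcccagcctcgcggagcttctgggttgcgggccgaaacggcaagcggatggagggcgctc
Ciart: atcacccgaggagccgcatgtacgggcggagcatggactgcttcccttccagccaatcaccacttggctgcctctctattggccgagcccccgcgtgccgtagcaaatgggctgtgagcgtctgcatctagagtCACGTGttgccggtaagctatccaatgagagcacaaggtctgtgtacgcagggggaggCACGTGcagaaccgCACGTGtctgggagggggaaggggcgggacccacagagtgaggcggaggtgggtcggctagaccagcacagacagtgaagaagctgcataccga
The Per1 window shown holds 1 E-box, starting 166 bases before the start, while a second window of Per1, at another start, holds none. Ciart holds 3, at 116, 58 and 44 bases before it. Of the 2 windows of Tspan4 the second holds 1 and the first none, and the windows of Per3, Nr1d1, Nr1d2, Dbp, Arrdc2, Pdk4, Ucp3 and Actc1 hold none, which says only that these letters are not in those windows. Neither the D-box TTACGTAA (in 0.119% of windows) nor the palindromic glucocorticoid response element (in 0.00913%) was found in any of them, on either strand.

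**Figure D3:**
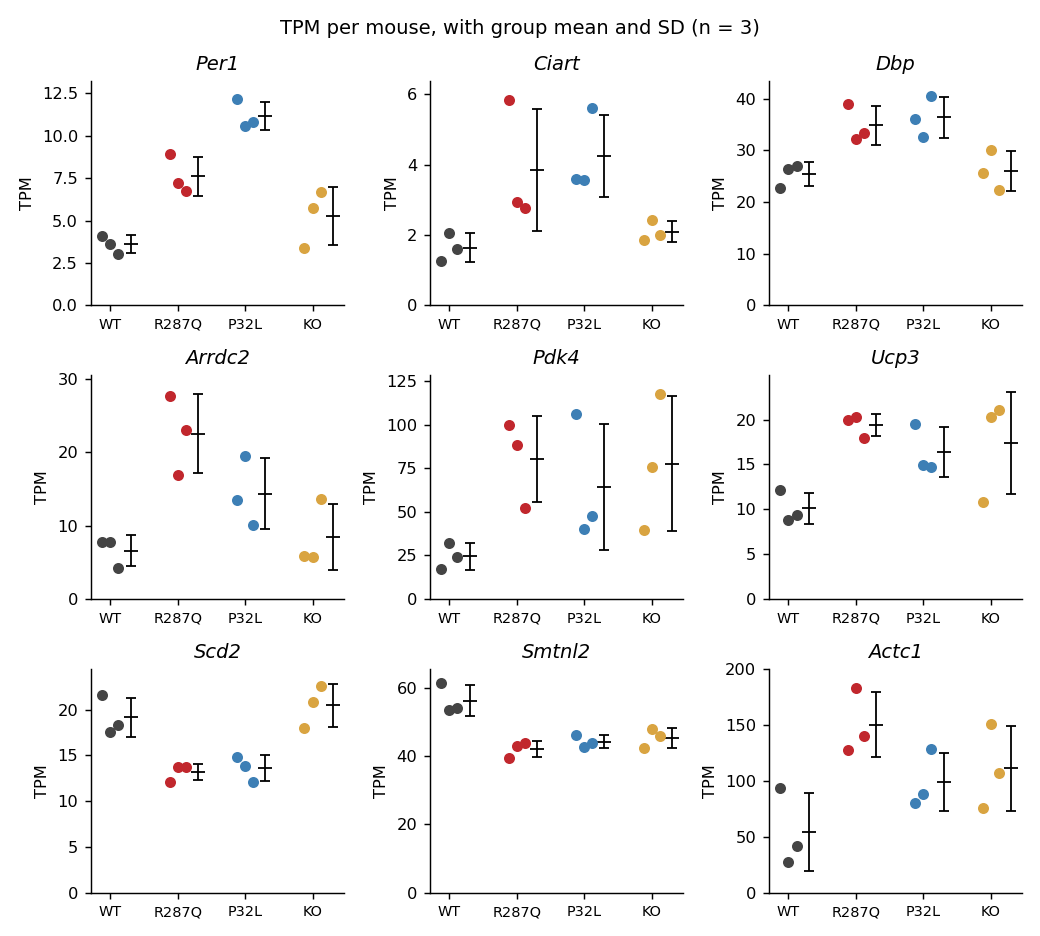
TPM of 9 genes in each mouse (points, in order of replicate number) with the group mean and SD (n = 3) for WT, R287Q, P32L and KO. R287Q values lie wholly above WT for Per1, Ciart, Dbp, Arrdc2, Pdk4, Ucp3 and Actc1 and wholly below for Scd2 and Smtnl2.

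Genes of the switch from glucose to fatty acids were mostly above WT. Pdk4, a kinase that shuts pyruvate dehydrogenase and is strongly induced by fasting, was at 17.0, 32.0 and 24.2 TPM in WT and 100, 88.2 and 52.4 TPM in R287Q. The groups did not overlap, and R287Q mouse 3 was the lowest of its group. The mean was 3.29-fold that of WT (log2 difference 1.67, SE 0.44, 95% interval 0.70 to 2.63; limma adjusted p = 0.518). Ucp3, a mitochondrial carrier of muscle that rises on fasting, was at 12.1, 8.80 and 9.35 TPM in WT and 19.9, 20.3 and 18 TPM in R287Q (0.89, SE 0.22; limma adjusted p = 0.447). Here the R287Q mice were closely alike and all above WT.

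Of 28 measured genes of this group 24 lay above WT, where 36.8% of all genes did, with a median of 0.09 that was 0.18 without WT mouse 1, 0.00 without WT mouse 3 and 0.04 without R287Q mouse 2. At an unadjusted p under 0.05 there were 6, all higher (1.7% of all genes were), and the same 6 had no overlap (3.02% of all genes). Besides Pdk4 and Ucp3, these were the thioesterase Acot2 (0.47, SE 0.14), the uncoupling protein Ucp2 (0.60, SE 0.22), the lipid-droplet protein Plin5 (0.42, SE 0.18) and the fatty acid transporter Slc27a1 (0.43, SE 0.19). The last 3 were named after their values were seen. Enzymes of the oxidation pathway itself moved less: Cpt1b, which lets fatty acids into muscle mitochondria, differed by 0.02 (SE 0.12). Angptl4, a fasting-induced inhibitor of lipoprotein lipase, had a large difference (0.98, SE 0.50), but R287Q mouse 3 at 0.621 TPM lay among WT mice at 0.193 to 1.10 TPM, while R287Q mice 1 and 2 were at 3.87 and 3.31 TPM. Cpt1a averaged under 1 TPM and was not tested; its values, 0.456, 0.388 and 0.5 TPM in WT and 0.879, 0.889 and 0.628 TPM in R287Q, did not overlap. The feeding state is not given in the labels, and its part was not tested.

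Arrdc2, an arrestin-domain gene whose product helps to direct membrane proteins to degradation, had the smallest p on the higher side. It was at 7.81, 7.79 and 4.24 TPM in WT and 27.6, 16.9 and 23.0 TPM in R287Q. The lowest R287Q mouse was above the highest WT mouse by more than the whole WT range, and the mean was 3.40-fold that of WT (log2 difference 1.64, SE 0.34, 95% interval 0.90 to 2.38; limma adjusted p = 0.425). It stood alone in its family: of 6 measured arrestin-domain genes and Txnip, the other 5 were below WT, with Txnip, which blocks glucose uptake, at -0.28 (SE 0.17). Among 16 genes of muscle atrophy and the glucocorticoid response 11 lay above WT (median 0.10, but -0.05 without WT mouse 3). The ubiquitin ligase Trim63 was at 39.6, 33.5 and 34.6 TPM in WT and 40.4, 44.0 and 44.4 TPM in R287Q, separated by a narrow gap (0.25, SE 0.09). Fbxo32, the ligase most often named beside it, overlapped (-0.04, SE 0.12; named after its values were seen). Mstn, myostatin, which limits muscle growth, was lower without overlap: 50.8, 46.3 and 52.6 TPM in WT and 43.0, 41.3 and 34.5 TPM in R287Q (-0.33, SE 0.12).

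Several genes of lipid synthesis were lower without overlap, while others varied with the mouse. Scd2, a stearoyl-CoA desaturase, was at 21.5, 17.5 and 18.4 TPM in WT and 12.1, 13.7 and 13.7 TPM in R287Q. No R287Q mouse reached the WT range (log2 difference -0.50, SE 0.11, 95% interval -0.75 to -0.25; limma adjusted p = 0.441). Idi1, an isomerase of the sterol pathway, was at 5.21, 5.46 and 5.41 TPM in WT and 4.28, 4.26 and 4.09 TPM in R287Q (-0.29, SE 0.08). Both groups were narrow and lay apart. Insig1, which senses sterols (-0.29, SE 0.09), and Srebf1, a transcription factor of lipid synthesis (-0.29, SE 0.14), were also lower without overlap; both were named after their values were seen. Of 15 measured genes of sterol and fatty acid synthesis 9 were lower (median -0.10, but -0.07 without R287Q mouse 2), where 63.2% of all genes were. Lower without overlap were 5 of the 15, as 5.99% of all genes were. Fasn and Scd1, lipogenic enzymes that fat cells express strongly, did not follow: Fasn was at 9.68, 10.7 and 36.3 TPM in WT and 34.5, 39.7 and 7.33 TPM in R287Q, and Scd1 at 37.8, 68.6 and 209 TPM in WT and 178, 195 and 36.9 TPM in R287Q. Both genes were high in R287Q mice 1 and 2 and WT mouse 3, as adipocyte markers were. Of sterol genes under 1 TPM, Sqle, squalene epoxidase, was also lower in all 3 R287Q mice, at 0.369 to 0.560 against 0.641 to 0.888 TPM.

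Actc1, the cardiac actin that skeletal muscle expresses during development and regeneration, was at 94.2, 27.2 and 42.3 TPM in WT and 128, 183 and 141 TPM in R287Q. The groups did not overlap, although WT mouse 1 came near (log2 difference 1.62, SE 0.39, 95% interval 0.76 to 2.48; limma adjusted p = 0.447). Most of its group did not accompany it: 8 of 11 measured genes of myogenesis and regeneration were below WT (median -0.19), where 63.2% of all genes were. The 3 above WT include Actc1. Myh8, perinatal myosin, was at 11.1, 8.65 and 8.51 TPM in WT and 6.25, 7.09 and 7.52 TPM in R287Q (-0.39, SE 0.17), lower without overlap. Satellite cell markers were below WT in 4 of 4 (median -0.15, but -0.02 without WT mouse 1 and -0.06 without R287Q mouse 3), with Cdh15 at -0.20 (SE 0.09).

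Genes of the Z-disc and of mechanical stress were below WT in 15 of 18 (median -0.14, but -0.05 without WT mouse 1), and 3 of these did not overlap, as 5.99% of all genes did not in that direction. Smtnl2, a smoothelin-like protein of striated muscle, was at 61.4, 53.4 and 54.0 TPM in WT and 39.6, 43.1 and 43.8 TPM in R287Q (log2 difference -0.41, SE 0.09; limma adjusted p = 0.425). Pdlim3, which binds alpha-actinin, was at 37.6, 40.3 and 31.3 TPM in WT and 25.1, 23.9 and 29.8 TPM in R287Q (-0.45, SE 0.13). Flnc, filamin C, was at 51.7, 43.5 and 50.9 TPM in WT and 36.1, 41.7 and 38.3 TPM in R287Q (-0.32, SE 0.09). In each of these genes all R287Q mice lay below all WT mice, by the least for Pdlim3 and Flnc. Of 18 genes of the triad and calcium release 16 were below WT (median -0.14, between -0.06 without WT mouse 2 and -0.26 without R287Q mouse 3), with Cacng1, a calcium channel subunit, furthest among the 3 with the smallest p (-0.34, SE 0.15). Fast-fibre genes were below in 13 of 15 (median -0.20, between -0.12 without R287Q mouse 2 and -0.30 without R287Q mouse 3), glycogen and glycolysis genes in 18 of 21 (median -0.11, but -0.02 without WT mouse 1, -0.04 without R287Q mouse 1 and -0.24 without R287Q mouse 3), and each of the fast-fibre troponins Tnnt3, Tnnc2 and Tnni2 by between -0.25 and -0.21. In those last lists R287Q mouse 3 lay within the WT range.

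The remaining genes with the smallest p on the lower side are of varied function. Cpeb2, which controls translation of mRNAs through their tails, was at 2.04, 1.84 and 2.10 TPM in WT and 1.27, 1.28 and 1.13 TPM in R287Q (-0.43, SE 0.08). H1f4, a linker histone, was at 16.4, 14.7 and 15.3 TPM in WT and 10.1, 9.20 and 8.40 TPM in R287Q (-0.69, SE 0.15). Both were picked for groups without overlap, and their R287Q mice were close together. Slc16a10, an aromatic amino acid transporter (-0.30), Plekhb1 (-0.49), the signalling adaptor Shc2 (-0.55), the deubiquitinase Otub2 (-0.64), the junction protein Afdn (-0.29) and Glt28d2 (-0.24) were lower without overlap. Exons of Cpeb2, Shc2, Afdn and Glt28d2 overlap those of another annotated gene, so their reads may be shared. By size, Rasd2, a small GTPase (-0.89), and Lrrc30 (-0.88) came next after 3 microRNA genes among named genes whose groups did not overlap; the gene models Gm12240 (-2.02) and Gm7265 (-1.33), named after their values were seen, lay further down. Lrrc30 was at 295, 186 and 137 TPM in WT and 80.9, 110 and 133 TPM in R287Q, so WT mouse 3 and R287Q mouse 3 were almost equal.

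On the higher side stood Map3k6, a stress-activated kinase, at 1.46, 0.851 and 1.16 TPM in WT and 2.06, 2.40 and 2.84 TPM in R287Q (0.67, SE 0.16). Pim3, a serine/threonine kinase, was at 18.7, 16.2 and 15.9 TPM in WT and 21.8, 22.7 and 26.6 TPM in R287Q (0.46, SE 0.11). Every R287Q mouse exceeded every WT mouse in both, as the rule that named them requires. Cstf2, a subunit of the cleavage stimulation factor of mRNA, was higher by less (0.23, SE 0.06); its exons overlap those of Nox1 on the opposite strand. Mup10, a major urinary protein gene best known from liver, had a large difference (1.79, SE 0.67), but it was 1.02 without WT mouse 2 and 1.29 without R287Q mouse 1, which was at 24.6 TPM, and R287Q mouse 3 at 6.69 TPM barely exceeded WT mouse 3 at 6.34 TPM. Mup10 is 1 of a family of near-identical genes, among which reads can be split.

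Several of the lowest p-values belonged to pseudogenes and microRNA genes, which reads of other genes can reach. An unadjusted p under 0.05 was found for 4.11% of 7588 protein-coding genes, 10.7% of 758 pseudogenes, 15.8% of 260 long non-coding genes and 18.6% of 59 microRNA genes. The pseudogenes Rpl26-ps6 (0.69, SE 0.15) and Rpl36a-ps2 (-0.62, SE 0.13) share sequence with ribosomal protein genes and can take their reads. The microRNA gene Mir6955 had the smallest p of all 9152 genes: 1.83, 2.07 and 1.55 TPM in WT and 0.733, 0.384 and 0.437 TPM in R287Q (-0.90, SE 0.15; limma adjusted p = 0.425). All 3 R287Q mice were far below WT, yet the hairpin has 74 bases and lies in an intron of Gga1 on the same strand (chromosome 15, 78891840 to 78891913), and an RNA library of this kind measures neither mature microRNA. Mir703, which lies in an intron of Cfap299 on the opposite strand, was at 0.932, 1.69 and 1.58 TPM in WT and 3.24, 4.43 and 4.75 TPM in R287Q (1.10, SE 0.25), higher without overlap. The mature products are shown so that the 2 loci can be identified; the sequences are from RefSeq on GRCm38.p6, with the seed (bases 2 to 8) in capitals, and no 2 of them share a seed.
mmu-miR-6955-5p: aGGGCCUCaggacucaggagguga
mmu-miR-6955-3p: aCACCUGUcuccuuugcccaca
mmu-miR-703: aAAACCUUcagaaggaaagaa
By size, Mir8114, which overlaps an exon of Glul, was furthest up (1.81, SE 0.62), and Mir365-1 (-1.11, SE 0.30) and Mir6931 (-1.08, SE 0.34) furthest down among genes without overlap, gene models aside.

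Markers of other cells and of fibre type showed that the 3 R287Q mice were not alike. In bulk tissue fewer cells of a type and less RNA per cell cannot be told apart. Neutrophil markers were high in 2 of the 3: S100a8, a calprotectin subunit, was at 2.30, 1.42 and 2.45 TPM in WT and at 25, 21.8 and 1.13 TPM in R287Q. S100a9 was at 0.602, 0.486 and 0.940 TPM in WT and 10.1, 17.2 and 0.786 TPM in R287Q, and Ngp, a neutrophil granule protein, at 0.383, 0.319 and 0.528 TPM and 9.85, 11.4 and 0.149 TPM. R287Q mice 1 and 2 exceeded all other mice in these genes. R287Q mouse 3 lay below all WT mice for S100a8 and Ngp and within the WT range for S100a9. The largest log2 difference of all genes was that of S100a9 (2.10, SE 0.78; limma adjusted p = 0.813). The summed level of all 13 listed markers, tested or not, ran from 3.55 to 7.39 TPM in WT and from 5.10 to 64.6 TPM in R287Q. The median difference of the 5 measured markers, 1.84, was 3.01 without R287Q mouse 3, 1.21 without R287Q mouse 1 and 1.30 without R287Q mouse 2. S100a9 and Ngp were under 1 TPM in every WT mouse, and the levels in R287Q mice 1 and 2 were enough to lift them over the floor. The size of that median, and the rank of S100a9 among all genes, therefore partly reflect the filter. Ear2, an eosinophil ribonuclease, was the 1 marker higher in all 3 mice (0.70, SE 0.23), with R287Q mouse 3 at 2.35 TPM against 2.25 TPM in the highest WT mouse; it has near-identical relatives. S100a8 was named after its values were seen.

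Slow-fibre genes followed the same mice. All 12 measured members lay at or above WT on average (median 0.31), none had non-overlapping groups, and none had an unadjusted p under 0.05. Myh7, the slow myosin heavy chain, was at 26, 18.6 and 38.7 TPM in WT and 50.8, 56.8 and 7.48 TPM in R287Q, and slow troponin C, Tnnc1, at 47.3, 41.4 and 70.8 TPM and 117, 115 and 15.1 TPM; both were named after their values were seen. The list score was 1.14 and 1.18 in R287Q mice 1 and 2 and -0.77 in mouse 3, with WT between 0.05 and 0.55. The list median was 1.01 without R287Q mouse 3, 0.07 without R287Q mouse 1, -0.02 without R287Q mouse 2, 0.20 without WT mouse 1 and 0.50 without WT mouse 3, so its direction turned on 1 library. Gastrocnemius holds slow and fast fibres in different places, and which part of the muscle each piece came from is not given in the labels.

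Adipocyte markers behaved likewise. All 9 measured members lay above WT on average (median 0.36), but the list score was 0.62, 0.81 and -0.97 in R287Q mice 1, 2 and 3 and -0.80, -0.28 and 0.46 in WT, so the groups overlapped; Adipoq, adiponectin, was at 3.72, 5.57 and 13.2 TPM in WT and 16.6, 19.1 and 1.58 TPM in R287Q (named after its values were seen). The median was 1.06 without R287Q mouse 3, -0.07 without R287Q mouse 2, 0.03 without R287Q mouse 1, 0.00 without WT mouse 1 and 0.71 without WT mouse 3. Plin4, a lipid-droplet protein, differed from the others: 40.4, 40.3 and 46.0 TPM in WT and 57.8, 68.7 and 64.8 TPM in R287Q (0.58, SE 0.18), with all 3 R287Q mice above WT. With the slow-fibre score of each mouse as a covariate, the log2 differences of Pdk4, Ucp3, Per1, Arrdc2 and Actc1, genes picked for their separation, were 1.59, 0.88, 0.89, 1.57 and 1.67; the part of fibre type, fat or neutrophils in them was not tested.

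Macrophage markers were above WT in 11 of 12 (median 0.25). WT mouse 2 had the lowest score of all 12 libraries (-1.05), and without it the median was -0.15, so the direction rested on that library; it was 0.54 without WT mouse 1, 0.43 without R287Q mouse 1 and 0.12 without R287Q mouse 3. Mpeg1, perforin-2 of macrophages, was at 5.75, 2.56 and 5.08 TPM in WT and 5.83, 8 and 7.37 TPM in R287Q (0.61, SE 0.24), with R287Q mouse 1 barely above WT mouse 1. Interferon-response and antigen-presentation genes were above in 15 of 16 (median 0.17, but 0.03 without WT mouse 2 and 0.09 without R287Q mouse 2), with Ifit3 at 0.39 (SE 0.16). Collagens and small proteoglycans, genes of the matrix that grows in fibrosis, were above in 16 of 20 (median 0.10), but Col1a1 was at 52.8, 31.1 and 24.2 TPM in WT and 28.3, 46.8 and 69.2 TPM in R287Q and the groups overlapped; the list median was -0.06 without WT mouse 2, 0.34 without WT mouse 1, 0.28 without R287Q mouse 1, 0.03 without R287Q mouse 2 and 0.01 without R287Q mouse 3. Endothelial markers were below WT in 7 of 10 (median -0.14, but -0.04 without WT mouse 1 and -0.05 without R287Q mouse 1), and Clec14a, an endothelial lectin, was at 6.83, 5.80 and 6.63 TPM in WT and 5.08, 5.51 and 5.44 TPM in R287Q (-0.22, SE 0.08), lower without overlap. Lymphocyte markers all averaged under 1 TPM. The part of these cells in the gene differences above was not tested.

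**Figure D4:**
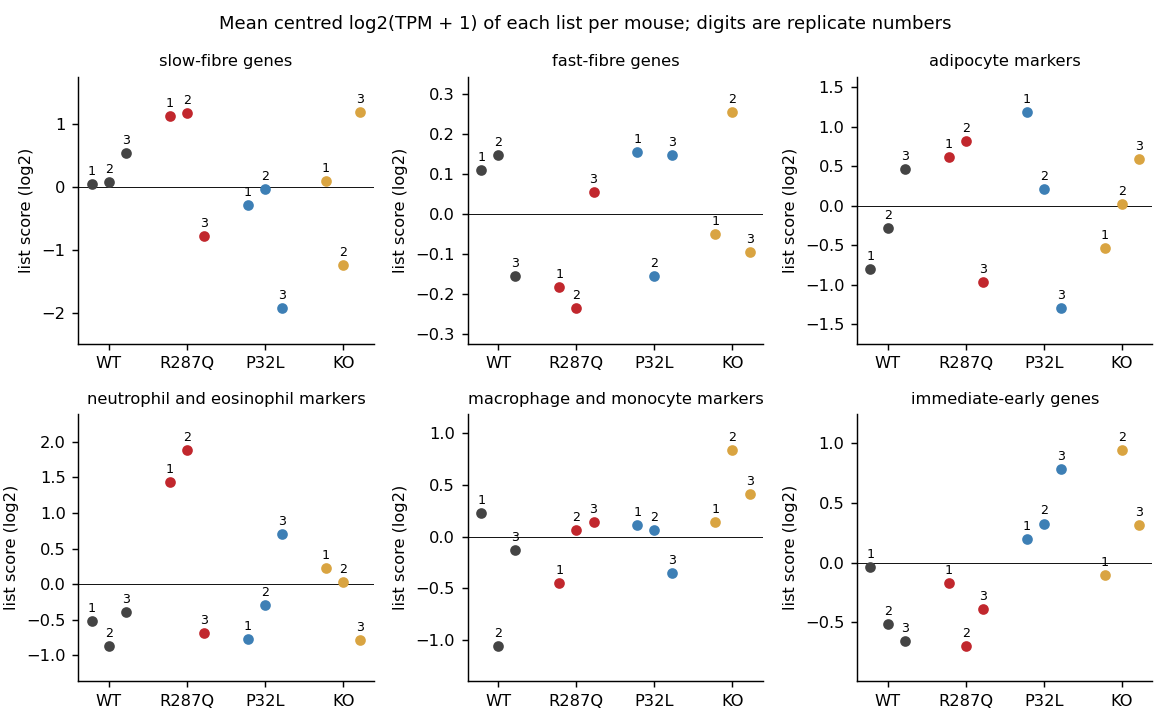
List score per mouse (vertical axis, log2 scale, mean over list genes of log2(TPM + 1) less the average of 12 libraries) for 6 lists, by group, with replicate numbers beside the points. R287Q mice 1 and 2 lie above R287Q mouse 3 in the slow-fibre, adipocyte and neutrophil panels, and WT mouse 2 is lowest in the macrophage panel.

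The list medians of energy and protein-quality genes stayed close to WT. Nuclear subunits of complex I were above WT in 15 of 39 (median -0.01, but 0.04 after median-of-ratios scaling and 0.02 after quantile normalization) and those of complexes II to V in 23 of 43 (median 0.00), with no member at an unadjusted p under 0.05 in either. Without WT mouse 3 these medians were -0.12 and -0.08, and without WT mouse 1 they were 0.05 and 0.08. Mitochondrially encoded transcripts were above in 27 of 37 (median 0.07, but -0.03 without R287Q mouse 3), and 3 of them, among them the transfer RNAs mt-Ti (0.36, SE 0.15) and mt-Tp (0.15, SE 0.07), did not overlap; their nuclear copies can take or give reads. Cytosolic ribosomal proteins were below in 72 of 81 (median -0.06, but 0.02 with mitochondrial genes left out and 0.00 without WT mouse 2 or R287Q mouse 2) and proteasome subunits in 37 of 44 (median -0.07, between -0.02 without WT mouse 1 and -0.14 without WT mouse 3). Rps27a departed from its group: 55.6, 86.1 and 103 TPM in WT and 210, 114 and 113 TPM in R287Q (0.81, SE 0.30), with R287Q mouse 1 far above the rest. Heat shock chaperones were below in 16 of 21 (median -0.10, but 0.07 without WT mouse 1), led by Hspb8 (-0.33, SE 0.17). Genes of the unfolded protein and integrated stress response were even, 10 above and 9 below (median 0.00, but 0.10 without WT mouse 1 and -0.10 without WT mouse 2). Insulin and IGF signalling was even as well, 9 above and 8 below (median 0.00, but 0.07 without R287Q mouse 1 and -0.05 without R287Q mouse 3).

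**Figure D5:**
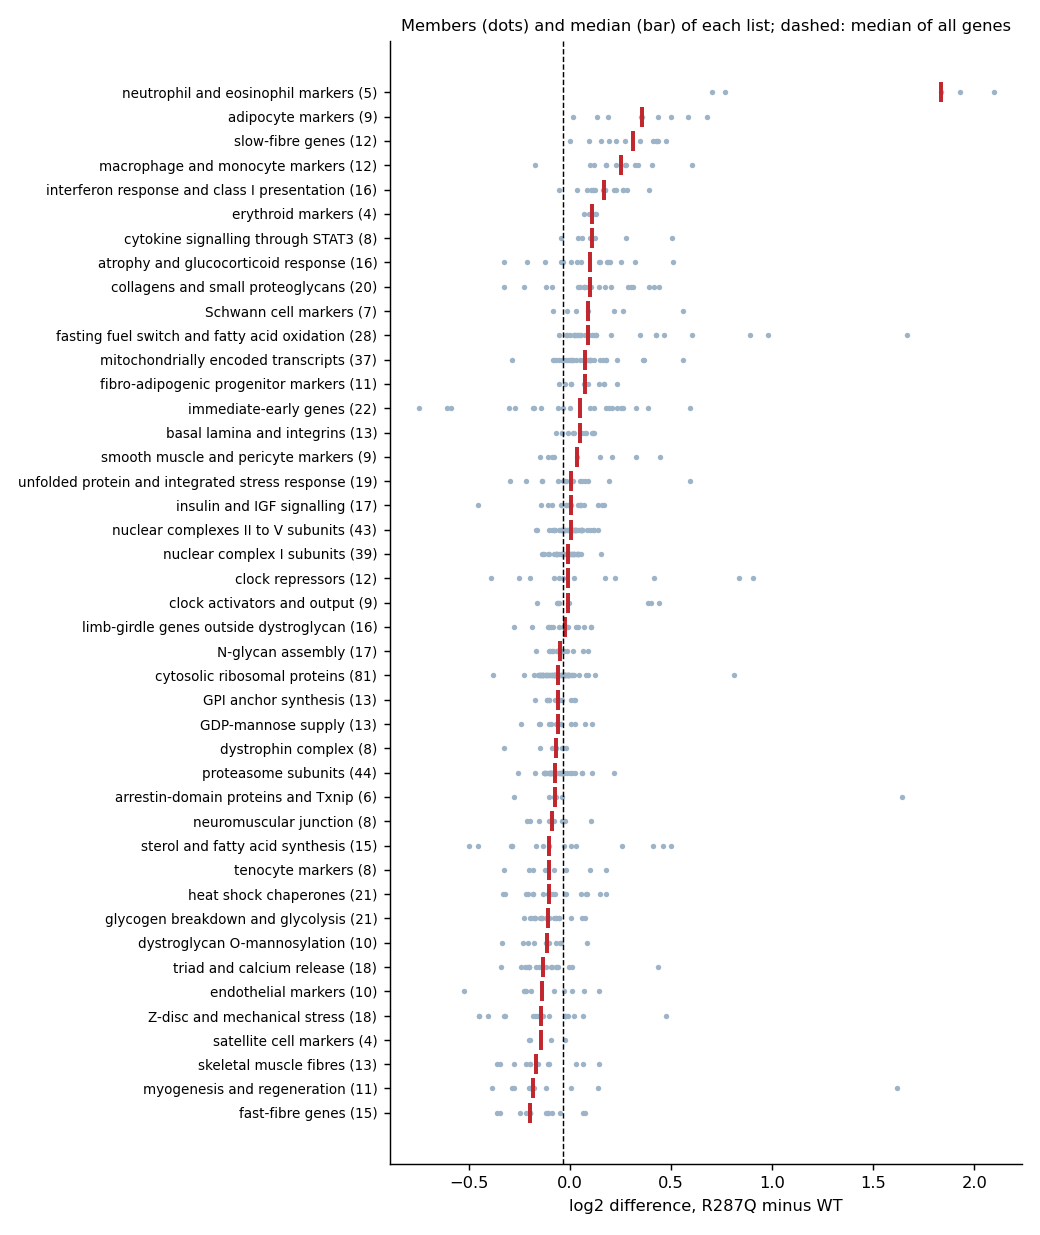
Log2 difference of R287Q minus WT for the measured members of each gene list (dots) with the list median (red bar); the dashed line is the median of all 9152 genes, -0.04, and the number of measured members is in brackets. Neutrophil and eosinophil markers lie furthest right (median 1.84), and fast-fibre genes furthest left (median -0.20). Of the former, S100a9 and Ngp were under 1 TPM in every WT mouse and passed the floor through mice in which they were high.

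R287Q was then set directly against the other Gmppb lines, which shows where it differs from them without the WT mice. Against KO, limma called 4 of 9152 genes (0.0437%), and 726 (7.93%) had an unadjusted p under 0.05. Cyp26b1, which breaks down retinoic acid, was at 0.444, 0.532 and 0.412 TPM in R287Q, at 0.776, 1.03 and 0.906 TPM in WT and at 6.36, 5.65 and 12.7 TPM in KO. The R287Q values were the lowest of these 3 groups and the KO values far above both. It was lower in R287Q than in KO by a log2 difference of -2.58 (SE 0.24; limma adjusted p = 0.00269), and overlapped with P32L, at 1.31, 0.906 and 0.435 TPM. Cyp26b1 averaged under 1 TPM in each of R287Q, WT and P32L and passed the floor only through the KO mice. Its call against KO is therefore not independent of the filter. The other 3 are gene models: the processed pseudogenes Gm7846 (-0.84, limma adjusted p = 0.0105) and Gm10269 (-0.63, adjusted p = 0.0264) were lower than in KO, and Gm43980, a model inside an intron of Tra2a, was above it (0.69, adjusted p = 0.0431). Leaving out any 1 R287Q mouse left 1 call, Cyp26b1, as did a block for replicate number, median-of-ratios scaling and quantile normalization.

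Against P32L, limma called 0 of 9152 genes (0%), and 610 (6.67%) had an unadjusted p under 0.05. The smallest adjusted p among the genes named here was that of Gm10269 (-0.65, adjusted p = 0.0625). All 3 lines were compared with the same 3 WT mice, so their likeness to each other in what follows partly repeats those mice, and values are given side by side. For Per1 the P32L mice had 12.2, 10.6 and 10.8 TPM and the KO mice 3.35, 5.75 and 6.68 TPM; R287Q lay between, below P32L by 0.50 on the log2 scale (SE 0.18; limma adjusted p = 0.666) and above KO by 0.49 (SE 0.18; limma adjusted p = 0.539). Dbp overlapped with R287Q in the P32L mice (36.1, 32.6 and 40.5 TPM) but not in the KO mice (25.6, 30.1 and 22.4 TPM). For Pdk4 the P32L mice had 106, 40 and 47.4 TPM and the KO mice 39.8, 75.9 and 117 TPM, and both ranges enclosed R287Q.

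For Arrdc2 the P32L mice had 13.5, 19.5 and 10.1 TPM and the KO mice 5.85, 5.79 and 13.6 TPM. R287Q was above all KO mice (1.39, SE 0.33; limma adjusted p = 0.237) and overlapped with P32L (0.63, SE 0.33; limma adjusted p = 0.815). Scd2 overlapped with R287Q in the P32L mice (14.8, 13.9 and 12 TPM), while the KO mice, with 18, 20.8 and 22.6 TPM, were all above it (-0.59, SE 0.11; limma adjusted p = 0.156). Immediate-early genes, which respond within minutes to stress or contraction, lay lower in R287Q than in the other lines: Fos was at 11, 7.43 and 4.25 TPM in WT, 6.17, 2.38 and 3.62 TPM in R287Q, while the P32L mice had 25.1, 23.9 and 72.2 TPM and the KO mice 17.2, 64.4 and 24.1 TPM. Every R287Q mouse was below every P32L and KO mouse, and the differences, -2.91 and -2.69, had limma adjusted p-values of 0.196 and 0.156. Fos was named after its values were seen. The median of the 22 measured immediate-early genes was 0.05 against WT (-0.10 without WT mouse 3 and -0.13 without R287Q mouse 1), -0.71 against P32L and -0.51 against KO.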

How the data were processed

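Gastrocnemius RNA of 12 mice, 3 per group, was sequenced after Trizol extraction and library preparation from 2 µg of RNA with an NEBNext Ultra kit, per the labels' protocols. The authors deposited 1 table of log2 values per gene symbol and mouse; raised back, the libraries summed to between 997591 and 998739, so the values were read as log2(TPM + 1), and the pseudocount of 1 was theirs. FastQC, HISAT2, StringTie and DESeq2 are named with mm10, per the submitters' processing notes; neither versions nor annotation are given in the sources used here. TPM keeps no depth, so the depth of a library is unknown and counting error cannot be stated.

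Genes averaging at least 1 TPM over 12 libraries entered 1 fit of 4 group means over all 12 libraries in limma 3.58.1, run in R 4.3.3 with a trend of variance on intensity, giving 8 residual and 3.11 prior degrees of freedom. P-values are two-sided and Benjamini-Hochberg adjusted over 9152 genes, with a call under 0.05. A log2 difference is one of mean log2(TPM + 1), which understates low genes; a fold is a ratio of mean TPM. Gmppb was also tested by exact permutation. The procedure was tested on simulated data. Symbols were placed with GENCODE M21 on mm10 (96.2% matched).

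The members, the 45 gene lists, the tests and the alternatives were chosen with earlier results of these data known. Named genes were Gmppb; the 12 per direction with the smallest p among genes with no overlap of groups and no model name; the 5 per direction with the largest difference among them; the 3 with the smallest p of each list; all measured members of GDP-mannose supply, dystroglycan O-mannosylation, the dystrophin complex and clock repressors (some members of these and other lists, though counted, are not reported here by name); and genes called between R287Q and another line. Others are said to be named after their values were seen, or are given as list members under 1 TPM or beside a list result.

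The alternatives were other pseudocounts, filters and scalings, leaving out mitochondrial genes, other variance models, weights per library, a slow-fibre covariate, a replicate block and each library left out, 25 settings in all.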

Additional observations from a re-analysis of the deposited data

Results flagged for a closer look

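Directly tested against KO, 4 genes differed in R287Q, the 4 called by limma over 9152 genes (log2 difference, R287Q minus KO): Cyp26b1 at -2.58, Gm7846 at -0.843, Gm10269 at -0.63 and Gm43980 at 0.685. All R287Q mice lay on 1 side of all KO mice in each of them. Cyp26b1 passed the floor of 1 TPM only through the KO mice, in which it was high. Against WT the same genes differed by -0.38 (Cyp26b1), -0.41 (Gm7846), -0.43 (Gm10269) and 0.46 (Gm43980), with limma adjusted p-values of 0.981, 0.447, 0.425 and 0.425. Gm7846 and Gm10269 are annotated as processed pseudogenes, to which reads of a parent gene can be assigned, and Gm43980 lies in an intron of Tra2a on the opposite strand.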

How the results depend on the processing

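Each limma comparison was repeated under 25 settings. The R287Q minus WT count of 0 became 34 with no filter (KO comparison 43, P32L comparison 24; 30488 genes) and 81 with weights per library (156 and 168), where the weights did not converge and R287Q mouse 2 received 6.65. Quantile normalization gave 1 call in each comparison, Tspan4 against WT, and leaving out mitochondrial genes gave 2, 7 and 2 among 14386 genes. The 4 calls against KO became 2 at a mean of at least 5 TPM, which leaves out Cyp26b1, and 1 with median-of-ratios scaling; fitting only the 6 libraries of that comparison also gave 4, of which 2 were shared. The P32L count of 0 became 1 at a pseudocount of 0.1, with median-of-ratios scaling and with the slow-fibre score as covariate. With libraries left out singly, the count against WT ran from 0 to 1 (Mir6955, without KO replicate 1), that against KO from 1 (without any 1 R287Q mouse) to 5 (without KO replicate 1), that against P32L stayed 0, and the Gmppb difference ran from -0.08115 (without WT replicate 2; -0.02958 and -0.03945 without R287Q replicates 2 and 3) to 0.139. With a replicate block the counts were 0, 1 and 0. Same-numbered R287Q and WT mice deviated from their group means in opposite directions (correlations across genes -0.394, -0.440 and -0.514). Mice with different numbers correlated at 0.069 to 0.397. The deviations within a group sum to 0, so these values are not independent. The numbers are not read as pairs, and the origin of this pattern was not tested. Beyond the number of genes or libraries that a setting removes, the cause was not tested. Leaving out 1 WT or R287Q library turned the sign of 26 of 43 list medians, sex-linked transcripts aside; the 17 others include fasting, sterol, Z-disc, fast-fibre and dystroglycan O-mannosylation genes. Arrdc2, Per1, Pdk4, Ucp3, Actc1, Scd2 and Smtnl2 kept their sign under all 25 settings. Their groups do not overlap, so leaving out single mice could not turn it. Several other settings, such as the variance models, leave the group means as they are. The kept sign is therefore no separate evidence for these genes.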
